A study of Homo sapiens with 6 samples.

Results

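Transforming growth factor beta (TGF-beta) and bone morphogenetic protein (BMP) signalling was described here through 9 genes of BT-549 cells: the ligand genes TGFB1, TGFB2, TGFB3, INHBA and BMP4, the receptor genes TGFBR1 and TGFBR2, the inhibitor gene SMAD7 and the target gene ID1. The members were taken by gene symbol from 37887 listed symbols, and all 9 were among the 18851 genes tested. BT-549 is an established cell line from a human triple-negative breast tumour. RNA-seq was performed on 3 control samples given 0.1% DMSO and on 3 samples silenced for IRF1, which encodes an interferon-responsive transcription factor (IRF1shRNA), with 500 ng/ml doxycycline. Titles of the DMSO samples name a control shRNA, but the series text describes 1 line stably carrying a tet-inducible IRF1 shRNA, with DMSO as the vehicle. On either reading every IRF1shRNA sample and no control received doxycycline, so the effects of the drug and of the hairpin cannot be told apart. If the titles hold, the groups also came from separately transduced cells, and differences between those cells cannot be told apart from silencing either. A single silenced population of a single line was studied.

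In this pathway a dimeric ligand brings together type II and type I serine/threonine kinase receptors at the cell surface. TGF-betas and activins act mainly through SMAD2 and SMAD3, and BMPs through SMAD1, SMAD5 and SMAD9. Both branches share SMAD4, and both induce the inhibitory SMADs as feedback. In breast cancer cells TGF-beta is known for growth arrest in early disease, and also for invasion and epithelial-mesenchymal transition.

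Total counts ranged from 55143808 in IRF1shRNA replicate 2 to 160436234 in IRF1shRNA replicate 3, and levels are given as CPM, counts scaled to a common library size with TMM factors. IRF1 itself averaged 48.3 ± 3.14 CPM in the control group (SD, n = 3) and 14.4 ± 0.601 CPM (n = 3) after silencing, with no overlap. The mesenchymal markers VIM and CDH2 were at 593 CPM or more and 223 CPM or more in every sample. ESR1 stayed at or below 0.144 CPM and PGR at or below 0.325 CPM. Of the epithelial markers, EPCAM stayed at or below 0.158 CPM and CDH1 at or below 0.802 CPM, while KRT8 and KRT18 reached 1.66 and 6.58 CPM. ERBB2 was counted at 35.0 to 54.8 CPM. Among markers of other cell types, CD3E, CDH5 and PECAM1 stayed at or below 0.144 CPM, PTPRC at or below 0.757 CPM, CD14 at or below 2.43 CPM and MLANA at or below 4.16 CPM. Of the markers tested, 6 were lower and 2 higher in IRF1shRNA samples. Of all genes tested 26.4% were lower and 24.1% higher, and of those averaging at least 1 CPM 34.2% and 29.3%. VIM fell from 918 ± 28.6 to 625 ± 32.9 CPM, FN1 from 761 ± 18.7 to 601 ± 24.7 CPM, ZEB1 from 87.2 ± 2.34 to 79.4 ± 1.76 CPM and ERBB2 from 50.8 ± 3.67 to 36.4 ± 1.599 CPM. KRT18 fell from 6.34 ± 0.225 to 2.92 ± 0.0679 CPM and KRT8 from 1.52 ± 0.181 to 0.441 ± 0.148 CPM, while CD14 rose from 1.09 ± 0.135 to 2.22 ± 0.189 CPM and MLANA from 3.06 ± 0.477 to 3.76 ± 0.359 CPM, and their part in the results was not tested.

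The 3 TGFB genes moved differently. The sequences before their annotated starts are shown first, with that of BMP4, and no link between sequence and change was tested. They are RefSeq windows (GRCh38.p14) of 250 bases that end at the base before the start, written 5′ to 3′ on the strand of the gene. Capitals mark TATAAA (the TATA box) or GGCGCC (a SMAD site described for BMP targets). TGFB1 lies at chr19:41353923-41354172 (minus strand) and TGFB2 at chr1:218345086-218345335 (plus strand). TGFB3 lies at chr14:75983012-75983261 and, for a second start, at chr14:75981996-75982245 (minus strand). BMP4, of which the first of 3 listed starts is shown, lies at chr14:53955051-53955300 (minus strand).
TGFB1: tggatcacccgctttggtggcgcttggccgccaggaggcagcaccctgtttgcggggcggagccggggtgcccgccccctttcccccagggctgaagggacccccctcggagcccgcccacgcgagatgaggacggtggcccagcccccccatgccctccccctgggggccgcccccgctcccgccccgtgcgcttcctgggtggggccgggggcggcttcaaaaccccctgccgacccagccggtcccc
TGFB2: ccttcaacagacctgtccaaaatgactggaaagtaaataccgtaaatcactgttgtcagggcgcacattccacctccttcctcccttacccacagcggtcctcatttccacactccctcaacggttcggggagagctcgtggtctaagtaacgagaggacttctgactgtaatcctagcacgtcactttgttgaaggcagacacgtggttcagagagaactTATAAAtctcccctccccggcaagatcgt
TGFB3 start 1: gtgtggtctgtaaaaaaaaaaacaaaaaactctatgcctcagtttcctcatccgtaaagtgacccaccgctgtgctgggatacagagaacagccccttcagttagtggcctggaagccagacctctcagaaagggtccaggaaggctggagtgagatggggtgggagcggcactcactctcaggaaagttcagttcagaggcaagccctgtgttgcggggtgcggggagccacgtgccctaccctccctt
TGFB3 start 2: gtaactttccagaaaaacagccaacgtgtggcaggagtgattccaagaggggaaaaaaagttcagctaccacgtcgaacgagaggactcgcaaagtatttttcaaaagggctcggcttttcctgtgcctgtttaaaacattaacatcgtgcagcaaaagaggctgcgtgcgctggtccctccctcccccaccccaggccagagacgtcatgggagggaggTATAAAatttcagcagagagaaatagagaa
BMP4: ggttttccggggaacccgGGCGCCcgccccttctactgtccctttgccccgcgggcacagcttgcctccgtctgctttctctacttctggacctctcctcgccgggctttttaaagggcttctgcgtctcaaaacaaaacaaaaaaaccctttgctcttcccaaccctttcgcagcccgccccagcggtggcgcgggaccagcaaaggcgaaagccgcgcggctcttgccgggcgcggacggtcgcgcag
The TGFB1 window had the highest share of G and C of the 5, at 76.8%, against 50.4% for TGFB2, 54.8% and 49.2% for the TGFB3 windows and 63.6% for BMP4. The median over all 35116 windows was 58.0%. By GENCODE release 29 the BMP4 window and the second TGFB3 window lie inside introns of their own genes, and 161 bases of the TGFB2 window fall in exons of the antisense gene TGFB2-AS1. The TGFB1 window lies within TMEM91 on the opposite strand, with 4 bases in its exons, and both TGFB3 windows lie in introns of IFT43.

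Motifs were counted on both strands in windows of 300 bases, from 250 bases before to 50 after each start, which were found for 9 of 9 members (22 windows) and 108 of 135 pathway genes (200 windows). The core of the interferon-stimulated response element was in 0 of the 22 member windows and in 3.57% of all windows. Palindromic SMAD sites, GTCTAGAC, were likewise in 0 member windows and in 0.202% of all. GGCGCC was found in 2 of the 22 member windows, for BMP4 and TGFBR1, and in 19.2% of all windows. TATAAA was found in 5 of the 22 member windows, for TGFB2, TGFB3, INHBA, SMAD7 and ID1, and in 11.5% of all windows. It lay 29 bases before the start of TGFB2 and 30 before the second start of TGFB3, and was not in the TGFB1 window. TATAAA, TGACGTCA (a cyclic AMP response element, 0 member windows, 1.85% of all) and TGAGTCA (an AP-1 site, in 1 window of TGFBR2 and 4.95% of all) were chosen after the data were seen. These matches describe the letters of the windows only.

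In IRF1shRNA samples 6 of the 9 members were lower and 1 was higher than in control samples. INHBA, BMP4 and TGFB1 fell by more than 2-fold, SMAD7, ID1 and TGFB2 fell by less, and TGFB3 rose. The receptor genes TGFBR1 and TGFBR2 did not pass the test. A gene was called changed at an adjusted p under 0.05 in edgeR (quasi-likelihood test, Benjamini-Hochberg adjustment). By this rule 50.5% of all genes tested were called, 26.4% lower and 24.1% higher, and 4.43% were lower by more than 2-fold. All members averaged at least 1 CPM, and of all genes that did, 63.6% were called. Control and IRF1shRNA ranges were separate for 7 of the 9 members, for 56.8% of all genes tested and for 68.3% of those averaging at least 1 CPM. The median log2 fold change was −0.35 over the 9 members and −0.0024 over all genes tested. Since the members were chosen with results known, these shares are a description. In bulk RNA, fewer cells expressing a gene and less RNA per cell cannot be told apart.

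**Figure D1:**
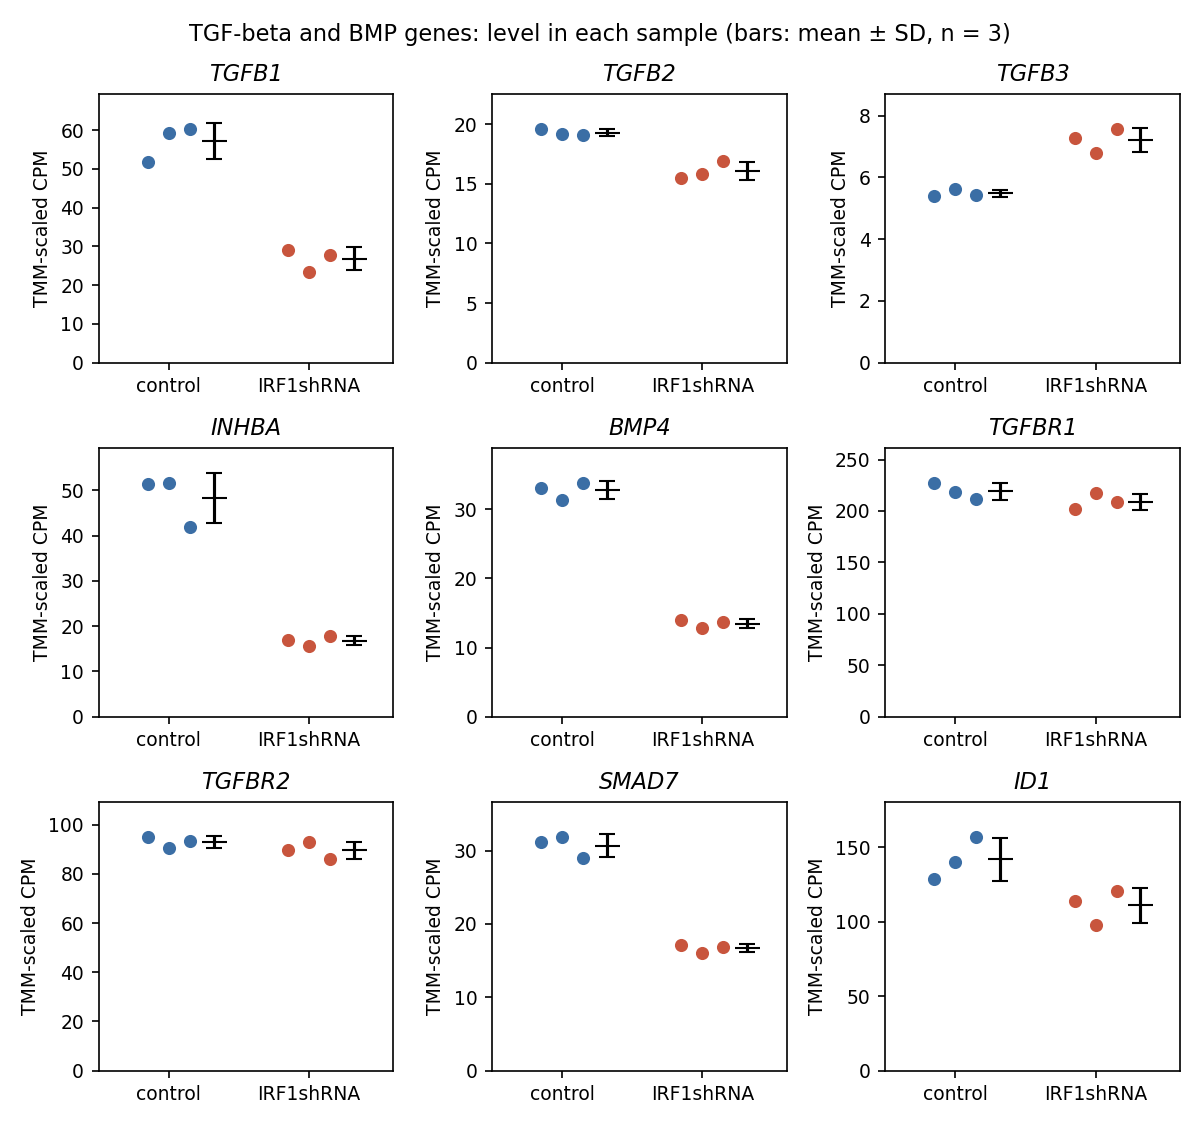
Level of each of the 9 genes in each sample, in TMM-scaled CPM on axes that start at 0 (blue, control; red, IRF1shRNA), with the mean ± SD of 3 samples beside the points. The groups were separate for 7 genes and overlapped for TGFBR1 and TGFBR2.

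Among the 5 ligand genes of the members, INHBA showed the largest change. INHBA encodes the beta A subunit of activin A and lies at chr7:41667168-41705834 (GRCh38, minus strand). Control replicates 1 to 3 held 51.4, 51.7 and 41.9 CPM, and IRF1shRNA replicates 1 to 3 held 16.9, 15.7 and 17.9 CPM. The control samples were all above the IRF1shRNA samples, with control replicate 3 the lowest of the controls. The mean fell from 48.3 ± 5.57 to 16.8 ± 1.07 CPM (SD; n = 3 in both groups). This was a log2 fold change of −1.52 ± 0.08 (SE), with an adjusted p of 3.86e-11 in edgeR's quasi-likelihood test. INHBA ranked 577 by size of change among the 18851 genes tested.

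BMP4, a BMP ligand, lies at chr14:53949736-53958761 (minus strand). In replicate order, its level was 33.0, 31.4 and 33.8 CPM without silencing and 13.9, 12.8 and 13.7 CPM with it. Both groups were tight and far apart. BMP4 fell from 32.8 ± 1.26 to 13.5 ± 0.608 CPM, or 41.1% of control, with a log2 fold change of −1.28 ± 0.06 and an adjusted p of 2.49e-11 (edgeR).

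TGFB1, the most abundant TGFB gene here, lies at chr19:41301587-41353911 (minus strand). The control samples held 51.8, 59.2 and 60.4 CPM and the IRF1shRNA samples 29.02, 23.4 and 27.9 CPM. The lowest control was well above the highest IRF1shRNA sample. TGFB1 fell from 57.1 ± 4.63 to 26.8 ± 2.97 CPM, giving a log2 fold change of −1.09 ± 0.07 and an adjusted p of 1.27e-09 (edgeR). TGFB1 shares 215 exon bases with HNRNPUL1 on the opposite strand, and the strand setting of the counting is not given in the sources used here. HNRNPUL1 went the other way, from 426 ± 13.5 to 465 ± 7.52 CPM (log2 fold change 0.13 ± 0.04).

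TGFB2 (chr1:218346235-218444619, plus strand) changed by far less. The control samples were at 19.6, 19.1 and 19.1 CPM and the IRF1shRNA samples at 15.5, 15.8 and 16.9 CPM, without overlap. This corresponded to −0.26 ± 0.06 on the log2 scale and an adjusted p of 0.00237 (edgeR). TGFB2-OT1, which shares 1371 exon bases with TGFB2 on the same strand, was counted at 0 in all 6 libraries, and how the shared stretch was counted is not known.

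TGFB3 (chr14:75958099-75982991, minus strand) was the single member to rise. Its level was 5.41, 5.62 and 5.42 CPM in the control samples against 7.27, 6.79 and 7.58 CPM after silencing, so every IRF1shRNA sample was above every control. TGFB3 rose from 5.48 ± 0.120 to 7.21 ± 0.398 CPM, giving a log2 fold change of 0.40 ± 0.08 and an adjusted p of 3.88e-04 (edgeR). IFT43, an overlapping gene on the opposite strand with no shared exon base, rose as well (log2 fold change 0.53 ± 0.07). TGFB3-AS1, which shares 163 exon bases on the opposite strand, held at most 6 counts in a library.

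To determine whether the TGFB genes changed by unequal amounts, ratios within each library were compared. These ratios do not depend on the scaling of libraries. The log2 ratio of TGFB2 to TGFB1 was −1.56 ± 0.14 in control and −0.73 ± 0.17 in IRF1shRNA samples (SD; n = 3 per group), a 1.78-fold shift toward TGFB2. For TGFB3 to TGFB1 it was −3.38 ± 0.11 and −1.89 ± 0.11, a 2.81-fold shift. Both had p = 0.10 in the exact two-sided permutation test, the smallest p that 3 against 3 samples allow, and 0.15 after adjustment over the 3 ratios tested. The groups did not overlap in either ratio. Per kb of exon, TGFB1 made up 78.3% ± 1.59 of the summed level of the TGFB genes in control and 64.2% ± 2.37 in IRF1shRNA samples. TGFB2 made up 16.7% ± 1.32 and 24.4% ± 1.95, and TGFB3 4.97% ± 0.284 and 11.4% ± 0.420.

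**Figure D2:**
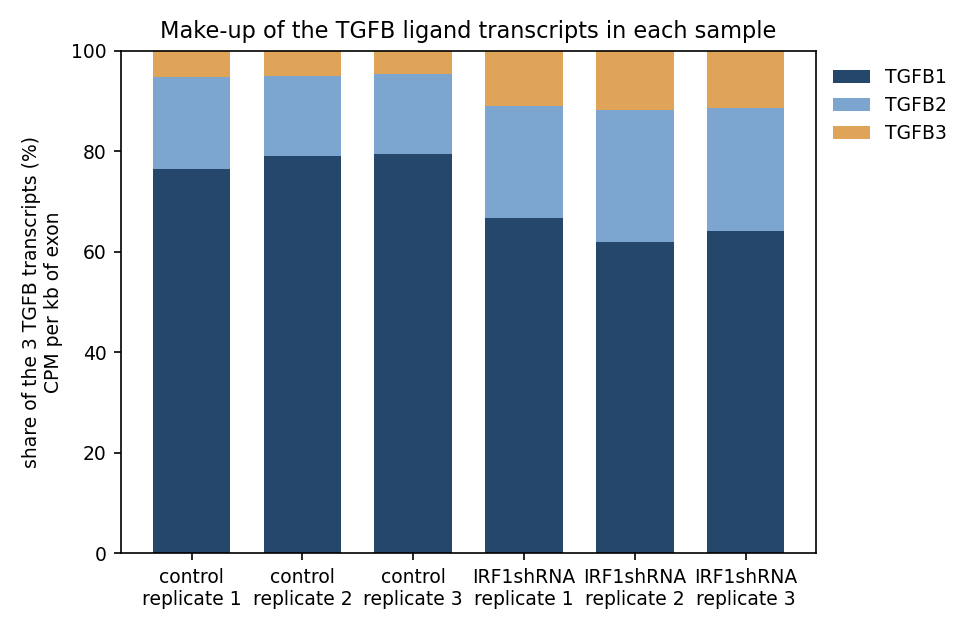
Share of TGFB1, TGFB2 and TGFB3 in their summed CPM per kb of exon (y axis, %), stacked for each of the 6 samples. TGFB1 held 76.5% to 79.5% in the control samples and 61.9% to 66.6% in the IRF1shRNA samples.

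The receptor genes were next. TGFBR1 encodes the type I receptor of TGF-beta (chr9:99104038-99154192, plus strand). TGFBR1 held 228, 219 and 212 CPM in the control samples against 202, 217 and 209 CPM after silencing, with overlap. Its log2 fold change was −0.07 ± 0.04, with a 95% interval from −0.16 to 0.03 and an adjusted p of 0.220 (edgeR). TGFBR2 encodes the type II receptor (chr3:30606502-30694142, plus strand). TGFBR2 held 95.2, 90.5 and 93.3 CPM against 90.0, 93.0 and 86.1 CPM in the same order, again with overlap. Its log2 fold change was −0.05 ± 0.04, with a 95% interval from −0.15 to 0.04 and an adjusted p of 0.334 (edgeR). The log2 ratio of TGFBR2 to TGFBR1 was −1.237 ± 0.05 in control and −1.22 ± 0.06 in IRF1shRNA samples (p = 0.80, exact two-sided permutation test). Changes beyond the interval bounds were therefore not seen for either receptor gene, while smaller ones cannot be resolved with 3 samples a group.

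SMAD7 encodes an inhibitory SMAD that blocks and degrades the type I receptor (chr18:48919853-48952052, minus strand). The control samples held 31.2, 31.9 and 28.97 CPM and the IRF1shRNA samples 17.2, 16.1 and 16.9 CPM. Every control was above every IRF1shRNA sample. SMAD7 fell from 30.7 ± 1.54 to 16.7 ± 0.558 CPM, or 54.5% of control, with a log2 fold change of −0.87 ± 0.06 and an adjusted p of 2.80e-09 (edgeR).

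ID1 encodes an inhibitor of differentiation and is a direct target of BMP SMADs (chr20:31605283-31606515, plus strand). Its level was 129, 140 and 157 CPM in the control samples against 114, 97.7 and 121 CPM after silencing. The groups did not overlap, but the gap between the lowest control and the highest IRF1shRNA sample was smaller than the spread within either group. ID1 fell from 142 ± 14.4 to 111 ± 11.99 CPM, giving a log2 fold change of −0.35 ± 0.07 and an adjusted p of 5.10e-04 (edgeR).

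**Figure D3:**
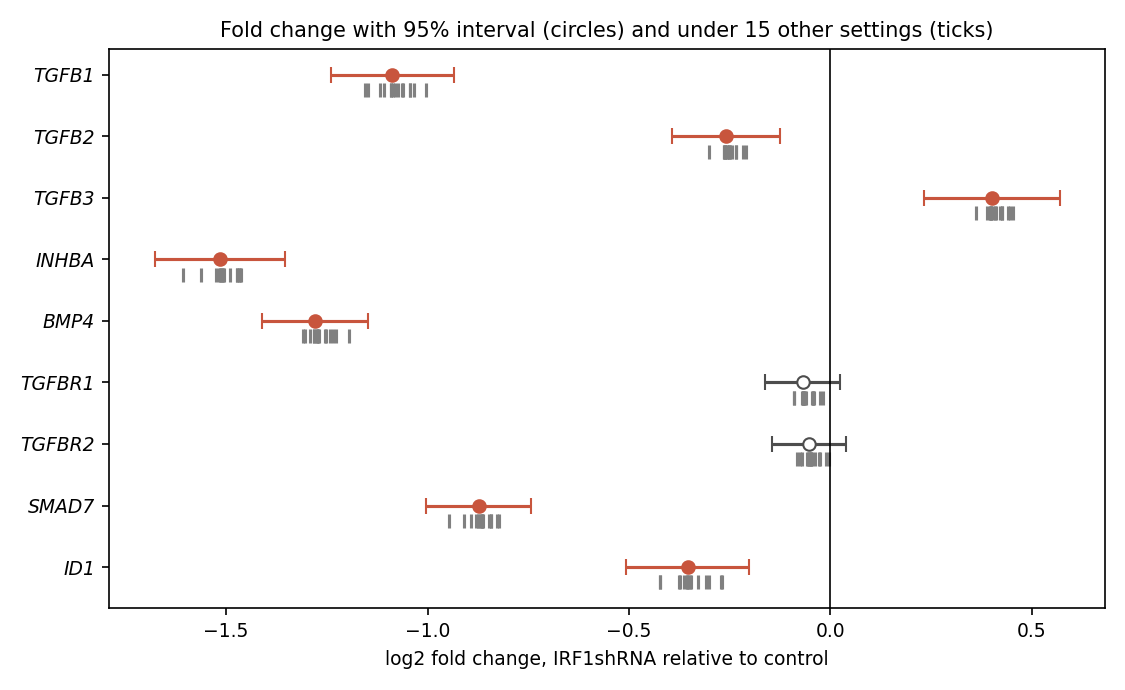
Log2 fold change of each of the 9 genes in IRF1shRNA relative to control samples (x axis), with 95% intervals (circles; filled where the adjusted p was under 0.05) and the values under 15 other settings (grey ticks). INHBA, BMP4 and TGFB1 lie furthest to the left, at −1.52, −1.28 and −1.09, and TGFB3 at 0.40 alone to the right of 0.

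Levels of different genes were compared per kb of exon, over the union of exons in GENCODE release 29, which need not be the transcripts used in these cells. In control samples ID1 had the highest level, 115 ± 11.6 CPM per kb, followed by TGFBR1 at 32.03 ± 1.18, TGFBR2 at 19.8 ± 0.505, TGFB1 at 17.6 ± 1.43 and BMP4 at 10.6 ± 0.409. SMAD7 at 6.10 ± 0.305 and INHBA at 5.82 ± 0.671 did not differ beyond their spread, and TGFB2 at 3.74 ± 0.0558 and TGFB3 at 1.12 ± 0.0243 were lowest. In IRF1shRNA samples the order down to SMAD7 was the same, with TGFB1 at 8.27 ± 0.916 and BMP4 at 4.37 ± 0.197 CPM per kb. Below them SMAD7 at 3.32 ± 0.111 and TGFB2 at 3.12 ± 0.146 had overlapping samples, while INHBA at 2.03 ± 0.129 had dropped below TGFB2 and stayed above TGFB3 at 1.47 ± 0.0810.

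The other genes of the pathway were then examined by role, from a list of 135 genes with the members included, of which 118 were tested. Without the members, 62 of 109 tested genes were lower and 24 higher, and 23 did not pass. Within the whole list, at an average of 1 CPM or more, 64.6% of 99 genes were lower and 22.2% higher, where all genes of that abundance gave 34.2% lower and 29.3% higher. The median log2 fold change of these 99 genes was −0.34, against −0.021 over all genes of that abundance. Shares of called genes rise with abundance, so the second pair of figures is the nearer background. The counts by role below include scarcer genes, and of all genes tested 26.4% were lower and 24.1% higher. Genes averaging under 1 CPM were 8 of the 17 other ligand genes and 4 of the 13 antagonists, but at most 2 in each other role. For those other roles 34.2% lower and 29.3% higher is the nearer background.

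**Figure D4:**
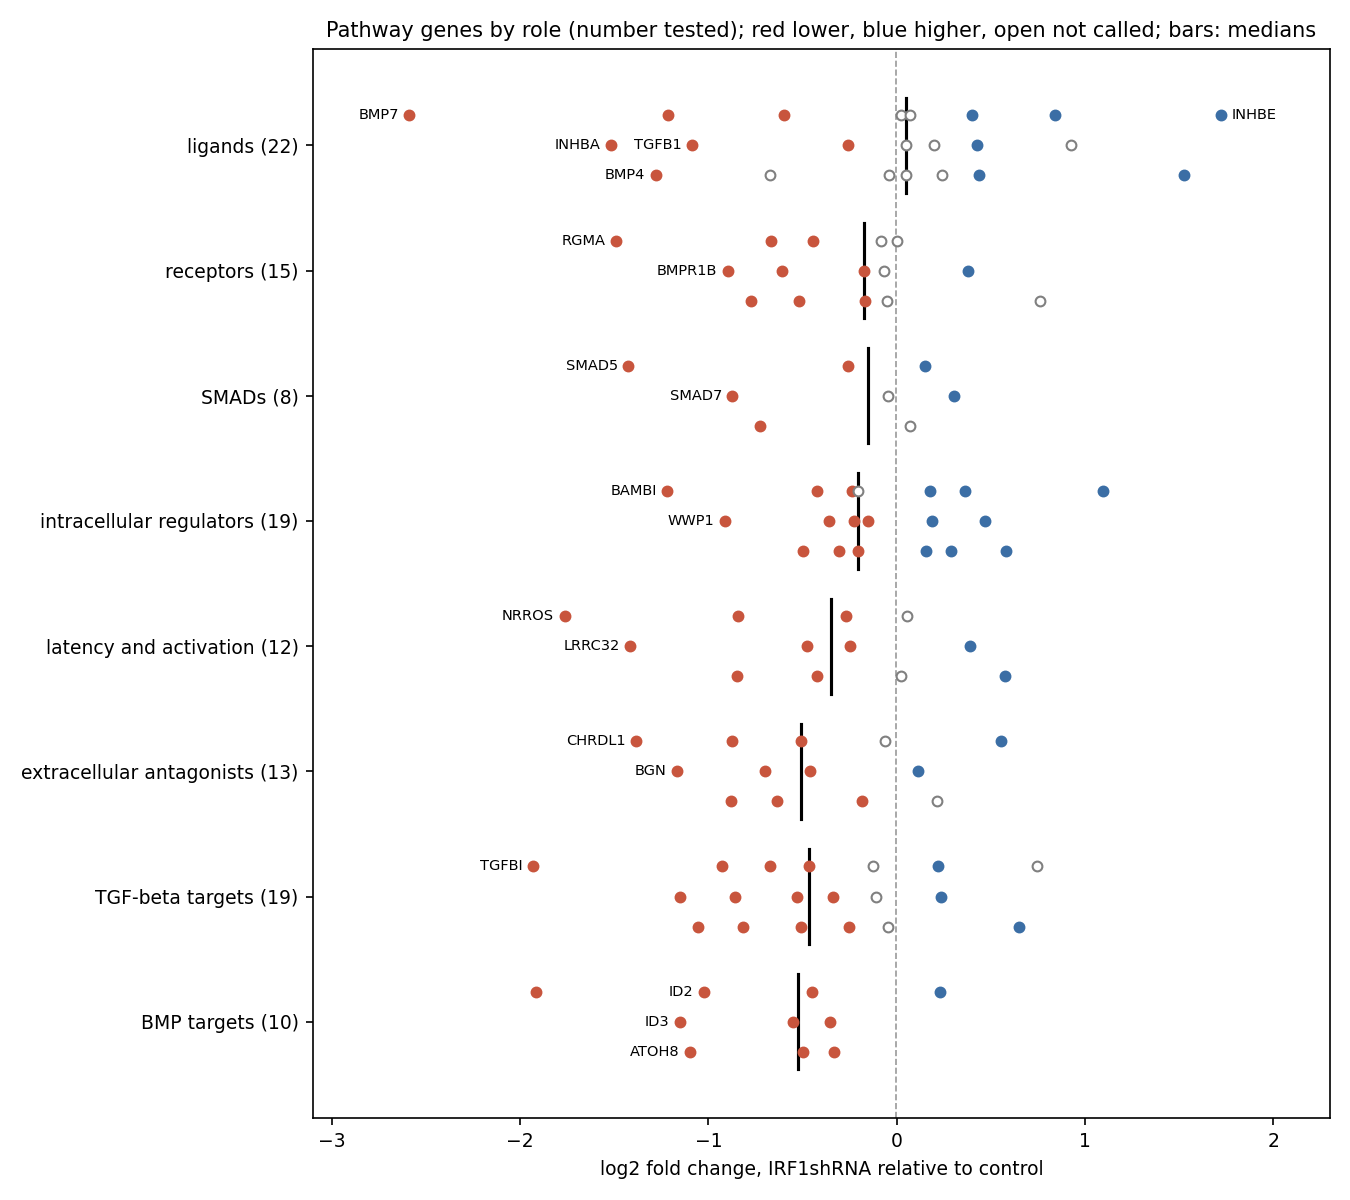
Log2 fold change of the 118 tested pathway genes in IRF1shRNA relative to control samples (x axis), in rows by role with the number tested in parentheses. Each point is a gene (red lower, blue higher, open not called), black bars are role medians, the dashed line is the median of all genes tested, and medians run from 0.048 for ligands to −0.53 for BMP targets.

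Ligand genes went both ways. Of 17 other ligand genes tested, 3 were lower (17.6%) and 5 higher (29.4%), near the 26.4% and 24.1% of all genes tested. Of these 17 genes, 8 averaged under 1 CPM. BMP7, a BMP ligand, fell from 8.67, 9.31 and 9.30 CPM in control to 1.44, 1.68 and 1.47 CPM in IRF1shRNA samples, or 16.8% of control, a log2 fold change of −2.59 ± 0.09 and an adjusted p of 5.92e-13 (edgeR). The BMP ligand genes did not move together. BMP2 also fell, from 3.90 ± 0.242 to 2.57 ± 0.0445 CPM (−0.60 ± 0.10), while BMP5 rose from 0.583 ± 0.0393 to 1.69 ± 0.271 CPM (log2 fold change 1.53 ± 0.18, adjusted p 1.33e-06 by edgeR) and BMP8B from 0.886 ± 0.0482 to 1.18 ± 0.132 CPM (0.43 ± 0.17, adjusted p 0.0408). BMP3, BMP6 and BMP8A did not pass the test, and BMP2, BMP3, BMP5, BMP6, BMP8A and BMP8B were chosen after their values were seen. GDF15, chosen in the same way, was the most abundant of the other ligand genes. It fell from 85.1 ± 7.46 to 36.5 ± 4.41 CPM (log2 fold change −1.21 ± 0.07). The 5 other ligand genes that rose were scarce, averaging at most 2.39 CPM over all samples. INHBE, which encodes the beta E activin subunit, rose from 0.746 ± 0.0174 to 2.46 ± 0.347 CPM (log2 fold change 1.72 ± 0.15).

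Receptor genes outside the members mostly fell. Of 13 tested, 9 were lower (69.2%) and 1 higher (7.69%). BMPR2, the type II BMP receptor, was at 115, 115 and 101 CPM in control and at 72.0, 71.9 and 73.0 CPM in IRF1shRNA samples, with a log2 fold change of −0.61 ± 0.05. The type I receptor genes BMPR1B and BMPR1A had log2 fold changes of −0.90 ± 0.09 and −0.17 ± 0.04, so the fall was steeper for BMPR1B, from 14.2 ± 1.239 to 7.69 ± 0.939 CPM. ACVR2A, a type II receptor for activins, fell by 0.44 on the log2 scale. RGMA, a BMP co-receptor, fell from 2.60 ± 0.0543 to 0.906 ± 0.132 CPM (−1.49 ± 0.14). ACVR1, another type I receptor of BMPs, was at 35.9 ± 0.410 and 36.0 ± 1.10 CPM and did not pass the test (log2 fold change 0.0022 ± 0.05, adjusted p 0.976 by edgeR).

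The SMAD genes divided within a branch. SMAD5, a signal transducer of BMP receptors, was at 161, 151 and 145 CPM in control and at 57.5, 56.7 and 56.2 CPM in IRF1shRNA samples. SMAD5 therefore fell to 37.2% of control, with a log2 fold change of −1.42 ± 0.05 and an adjusted p of 1.15e-13 (edgeR). SMAD1, which has the same role, was at 29.03 ± 0.387 and 32.3 ± 0.897 CPM, a log2 fold change of 0.15 ± 0.05 with an adjusted p of 0.0247 (edgeR). The SMAD1 call was lost without control replicate 1, without control replicate 2 or without IRF1shRNA replicate 3 (adjusted p 0.0612, 0.102 and 0.0626 by edgeR). The common SMAD4 rose from 65.5 ± 2.49 to 80.8 ± 3.82 CPM (0.31 ± 0.05). SMAD2 and SMAD3, the transducers of TGF-beta and activin, had log2 fold changes of 0.07 ± 0.04 and −0.05 ± 0.04 with adjusted p of 0.177 and 0.352 (edgeR), although SMAD2 passed upward under upper quartile and library size scaling (adjusted p 0.0312 and 0.0273). SMAD6, the inhibitory SMAD of the BMP branch, fell with SMAD7, from 29.3 ± 1.235 to 17.7 ± 1.82 CPM (−0.73 ± 0.07). SMAD9, the remaining transducer of the BMP branch, fell by 0.26 on the log2 scale. SMAD6 and SMAD9 were chosen after their values were seen, as was ID4.

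**Figure D5:**
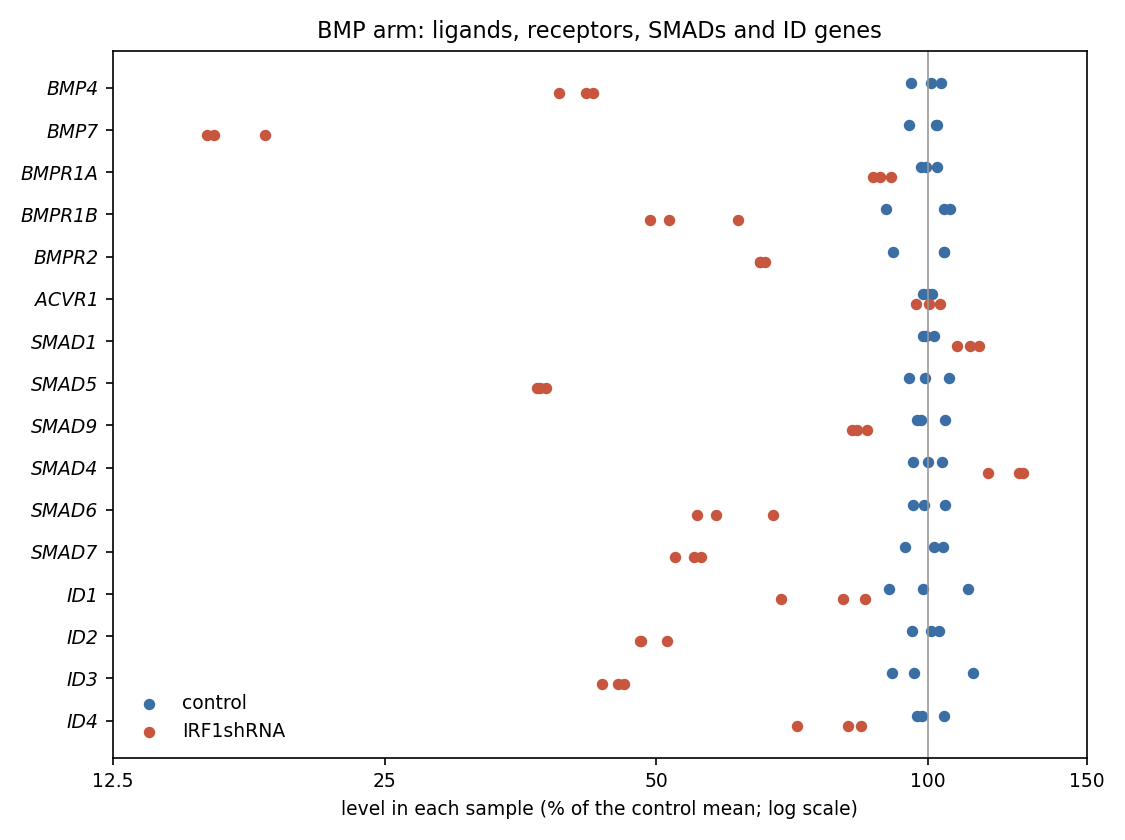
Level of BMP ligand, receptor, SMAD and ID genes in each sample as a percentage of the control mean (x axis, log scale; blue, control; red, IRF1shRNA). BMP7 fell to 16.8%, SMAD5 to 37.2% and BMP4 to 41.1% of control, while SMAD1 and SMAD4 lie to the right of 100%.

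Regulators at the membrane or inside the cell (drawn as intracellular regulators) were almost evenly split, with 10 lower (52.6%) and 8 higher (42.1%) of 19 tested. BAMBI, a decoy receptor induced by the pathway, fell from 44.6 ± 2.21 to 19.1 ± 1.81 CPM (log2 fold change −1.22 ± 0.07), and WWP1, a ubiquitin ligase, from 102 ± 2.81 to 54.6 ± 3.43 CPM (−0.91 ± 0.05). SKIL, a SMAD corepressor and feedback gene, fell by 0.36 on the log2 scale. PMEPA1, another feedback inhibitor, went the other way, from 29.3 ± 0.820 to 40.4 ± 1.46 CPM (0.47 ± 0.05).

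Genes that hold TGF-beta latent or release it were lower in 8 (66.7%) and higher in 2 (16.7%) of 12 tested. Among those averaging at least 1 CPM, the largest log2 fold changes were −1.76 ± 0.13 for NRROS and −1.42 ± 0.14 for LRRC32, which tether latent TGF-beta at the cell surface. Both were low, at 3.10 ± 0.179 and 2.83 ± 0.253 CPM in control samples. Extracellular antagonists were lower in 9 (69.2%) and higher in 2 (15.4%) of 13 tested. CHRDL1, a secreted BMP antagonist, fell from 11.2 ± 0.536 to 4.34 ± 0.490 CPM (−1.39 ± 0.09), and BGN, a matrix proteoglycan that can bind TGF-beta, from 2.79 ± 0.447 to 1.23 ± 0.0981 CPM (−1.17 ± 0.14).

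Known TGF-beta targets were lower in 12 (63.2%) and higher in 3 (15.8%) of 19 tested. TGFBI, a matrix protein named for its induction by TGF-beta, was at 367, 395 and 379 CPM in control and at 92.2, 100.3 and 107 CPM in IRF1shRNA samples. TGFBI thereby fell to 26.2% of control, with a log2 fold change of −1.93 ± 0.05 and an adjusted p of 2.18e-14 (edgeR). CCN2, a connective tissue growth factor, fell by 0.51 on the log2 scale, from 134 ± 9.22 to 94.4 ± 1.03 CPM. CCN1 and CDKN2B rose, by 0.22 and 0.23 on the log2 scale, and COL1A1 and TAGLN did not pass the test. CCN1, CDKN2B, COL1A1 and TAGLN were chosen after their values were seen. Many of the TGF-beta targets also respond to other signals, and neither receptor nor SMAD activity was measured.

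Known BMP targets outside the members were lower in 8 (88.9%) and higher in 1 (11.1%) of 9 tested. ID3 was at 207, 218 and 254 CPM in control and at 103, 98.4 and 104 CPM in IRF1shRNA samples, with a log2 fold change of −1.15 ± 0.06 and an adjusted p of 6.49e-11 (edgeR). ID2 fell from 75.7 ± 2.68 to 37.2 ± 1.46 CPM (−1.02 ± 0.05). ID4 fell by 0.33 on the log2 scale, close in size to ID1 at −0.35. ATOH8, a transcription factor gene induced by BMP, fell from 11.2 ± 1.03 to 5.24 ± 0.349 CPM (−1.10 ± 0.09).

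The genes whose log2 CPM followed INHBA most closely over the 6 samples were MOXD1 (Pearson's r = 0.999), AHR (0.999) and UBASH3B (0.999). Their log2 fold changes were −1.07 ± 0.08, −0.40 ± 0.04 and −0.88 ± 0.05. This is a description only, as r above 0.99 with INHBA was reached by 290 of the 13065 other genes averaging 1 CPM or more, and the points share the difference between the groups. INHBA-AS1, which overlaps INHBA on the opposite strand with no shared exon base, was at 0.317 ± 0.0416 and 0.153 ± 0.0669 CPM (log2 fold change −1.004 ± 0.37, adjusted p 0.0322 by edgeR).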

How the data were processed

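RNA was sequenced from 3 control and 3 IRF1shRNA samples of BT-549 cells with TruSeq Stranded mRNA libraries. Raw counts by gene symbol were deposited, not normalized, by the authors. The submitters' processing notes name CASAVA 1.8.2, STAR 2.7.9a, featureCounts, DESeq2 1.24.0 and GRCh38.p7, with no roles. The annotation and the strand setting are not given in the sources used here. Between 72.1% and 75.2% of values from 2 to 11 counts were even, so mates of a pair may have been counted singly. Counts were tested with edgeR 4.0.16 (R 4.3.3) by its quasi-likelihood test, with Benjamini-Hochberg adjustment over 18851 genes. Settings were TMM, filterByExpr with a minimum count of 10, and group as the single factor. The procedure was checked on simulated data with 200 changed genes. Far more genes were called here, so the check does not cover a share of changed genes this large. SE is the log2 fold change divided by the square root of F. A total of 3 counts corresponded to 0.0182 to 0.0540 CPM, for counting error only. Replicates of a group differed by 6.15 to 15.2 in chi-square per degree of freedom of halved counts, above sampling noise. The labels state cultures in triplicate, and p-values measure the spread between these samples. Log2 ratios used a prior count of 0.5 and exact permutation tests. Gene spans came from GENCODE release 29 (GRCh38). Alternatives were DESeq2 1.42.0, other scalings and filters, halved and thinned counts, a replicate block and leaving out each sample. The members and lists were chosen with earlier results of these data known. Named genes were the members, 15 core pathway genes taken by name, up to 2 genes per role with the largest called change at a mean of at least 1 CPM, 3 genes most like INHBA, and IRF1, of which 1 gene is not reported here.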

Additional observations from a re-analysis of the deposited data

How the results depend on the processing

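Under the 15 alternatives no member changed direction or crossed the 0.05 threshold. Log2 fold changes ran from −1.61 to −1.46 for INHBA, −1.31 to −1.20 for BMP4, −1.16 to −1.003 for TGFB1, −0.95 to −0.82 for SMAD7, −0.42 to −0.27 for ID1, −0.30 to −0.21 for TGFB2, 0.36 to 0.45 for TGFB3, −0.091 to −0.018 for TGFBR1 and −0.083 to −0.0032 for TGFBR2. The ID1 value closest to 0 came without IRF1shRNA replicate 2, the library with the fewest counts. The pathway counts stayed between 61 and 68 lower and 19 and 26 higher. Over all genes, calls above 2-fold depended on abundance, with 223 higher and 523 lower at 1 CPM in at least 3 samples, and 174 and 531 at a mean of at least 1 CPM (the latter chosen after seeing the data), against 647 and 835. The log2 ratio of TGFBR2 to TGFBR1 moved across 0 (−0.0136 to 0.043 when 1 sample was left out, main value 0.015), as did SMAD3 with library size only (0.0034) and ACVR1 with no filter (−0.000125) or 1 sample left out (−0.014 to 0.023), and the cause was not tested. The median log2 fold change of all genes was 0.049 with library size only, against −0.0024. Same-numbered replicates had correlations of 0.020, 0.020 and −0.018 in their deviations from group means, so the numbers were not taken as pairs. With the replicate block, 6 members were still lower and 1 higher, the pathway counts were 67 and 24, and INHBA was at −1.51. For the ratios the block cannot move the shifts (0.83, 1.49 and 0.015), since each replicate number has 1 sample a group, and the smallest possible p in the exact test is then 0.25.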
